A study of Homo sapiens with 24 samples.

Results

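RNA that is not engaged with polysomes was compared between MRC5 cells, a human lung fibroblast line, under oxidative stress (OS) and untreated control cells. The untranslated pool is gradient fractions 1 to 9, which hold free ribonucleoprotein particles and single 80S ribosomes. It was measured on 6 of the 24 arrays of the study, 3 from control cells and 3 from cells given 0.2 mM hydrogen peroxide for 2 h, and these 6 arrays were taken by their labels. Total RNA of the same 2 conditions, 3 arrays each, is given beside it. Per the labels, cycloheximide, which freezes ribosomes on mRNA, was added before harvest in both conditions. All samples come from 1 cell line. The replicates were stated to be independent RNA preparations. The control arrays of the pool labelled as replicates 1 and 2 share a number in their labels, whose meaning the labels do not give. Their log2 signals differed with an SD of 0.563, against 0.544 and 0.46 for the other control pairs, and they were counted as 2 samples. They lie on different slides, so this SD cannot decide whether they are separate samples.

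In a growing cell most mRNAs are bound by several ribosomes and sediment in polysomes. When initiation is blocked, ribosomes run off and the freed mRNA sediments with ribonucleoprotein particles, where it can be stored, moved to stress granules or degraded. A transcript can therefore gain signal in the untranslated pool because more of it is made or because it leaves the polysomes, and its change in total RNA is the measurement that stands beside both. Newly made transcripts, nuclear RNA released on lysis and most long noncoding RNAs (lncRNAs) also sediment in the light fractions. Each array received the same mass of RNA, labelled from an oligo-dT primer, so signals are levels relative to the other polyadenylated RNA of the same pool, and the size of the pool itself was not measured.

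The array carries 17535 catalog probes, called mRNA probes here although some detect noncoding RNAs, and 44002 custom probes for 22007 lncRNA transcripts. Between 43.6% and 50.2% of mRNA probes and between 14.5% and 21.8% of lncRNA probes were well above background on the pool arrays, against up to 67.8% and 36.4% on the total RNA arrays. Among fibroblast markers, COL1A1, COL3A1, LUM and THY1 were well above background on all 6 pool arrays. Of the markers of other cell types on the array, EPCAM, KRT5, KDR, VWF, MYH11 and MYOD1 were above background on none, CDH5 on 3, and KRT8, KRT18 and DES on all 6. Of the 3 probes of PTPRC, a marker of blood cells, 1 was above background on 5 of the 6 arrays and the others on none. One total RNA array stood apart: replicate 1 of the control differed from the other controls with an SD of 0.94 and 1.04, against 0.444 between those, and counts without it are given among the processing alternatives.

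Upon OS, mRNA probes moved in both directions in the untranslated pool. Signal of 1711 of 8053 tested mRNA probes (21.2%) was higher and that of 2026 (25.2%) lower in the pool of stressed cells, where a probe was tested if all arrays of the control or of the OS group were well above background, and called means an adjusted p under 0.05 in limma. In total RNA, 490 of 10658 mRNA probes (4.6%) were higher and 674 (6.32%) lower. Whether more probes were called in the pool or in total RNA depends on the fit: with only the 6 arrays of each comparison, 1188 mRNA probes were higher and 1259 lower in the pool, against 921 and 1693 in total RNA. Leaving out 1 array at a time gave 325 to 561 higher and 341 to 812 lower mRNA probes in total RNA. The called changes in the pool had medians of 0.75 and -0.55 on the log2 scale, while the median over all tested mRNA probes was -0.04. The control and OS arrays of the pool did not overlap for 52.1% of the tested mRNA probes. Of the called mRNA changes, 98.6% of the higher and 99.5% of the lower ones had the same direction within each of the 3 slides, each of which holds 1 control and 1 OS array of the pool. The probes were called on these same arrays, so a shared direction follows largely from the call and is no separate support.

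In the lncRNA category the called changes of the pool were shared with total RNA for a larger part than in the mRNA category. Of 7019 tested lncRNA probes, 858 (12.2%) were higher and 891 (12.7%) lower in the pool upon OS, against 1200 of 11762 (10.2%) and 839 (7.13%) in total RNA. Among lncRNA probes higher in the pool and tested in both, 308 of 839 (36.7%) were also higher in total RNA. Among mRNA probes higher in the pool, 149 of 1708 (8.72%) were also higher in total RNA, 184 were lower in total RNA and 1375 had no call there. Of the mRNA probes lower in the pool, 211 of 2024 were lower in total RNA, 1795 had no call and 18 were higher. These shares are descriptions, and the difference between the categories was not tested. Across 8004 mRNA probes the changes in the pool and in total RNA had a Pearson r of 0.21 and a Spearman rho of 0.07, and across 6818 lncRNA probes 0.4 and 0.17. The probes share arrays and normalization and are not independent.

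The split of calls into higher and lower rests on the scaling of the arrays. Quantile normalization within each category, as in the study, gives both conditions the same distribution. Of the called mRNA changes in the pool, 45.8% were higher with this normalization, 61.3% after scaling to the 75th percentile and 29.7% after scaling on spike-in probes. The corresponding shares for lncRNA probes were 49.1%, 63.3% and 22.5%. In total RNA, 42.1% of the called mRNA changes and 58.9% of the called lncRNA changes were higher, against 11.6% and 41.1% on the spike-in scale and 18.2% for mRNA with no normalization. The spike-in scale moved the median change in the pool to -0.19 for mRNA and -0.17 for lncRNA probes, so changes are reported relative to the other transcripts of the category.

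**Figure D1:**
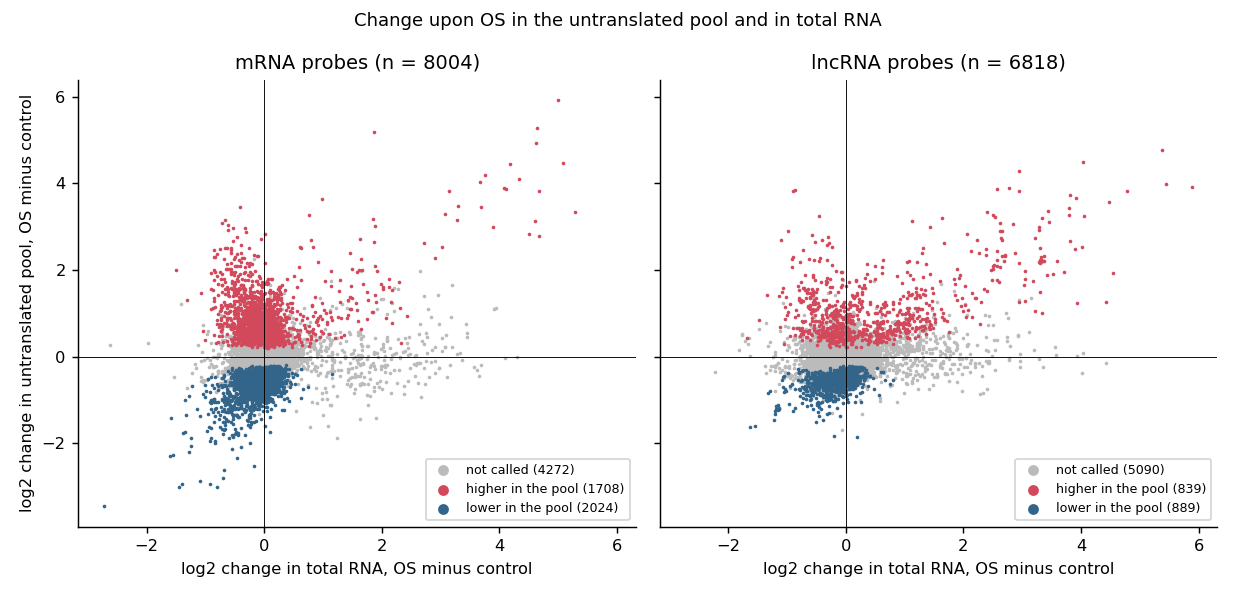
Each point is 1 probe, with its log2 change upon OS in total RNA on the horizontal axis and in the untranslated pool on the vertical axis, for 8004 mRNA probes (left) and 6818 lncRNA probes (right). Red and blue mark probes called higher and lower in the pool, and many red mRNA points lie at or left of 0 in total RNA, while a band of red lncRNA points lies along the diagonal.

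The difference between the change in the pool and the change in total RNA was tested for each probe as an interaction. For 1312 of 8004 mRNA probes (16.4%) the change in the pool was higher than in total RNA and for 1404 (17.5%) it was lower. For lncRNA probes the counts were 517 of 6818 (7.58%) and 521 (7.64%). Of the mRNA probes higher in the pool, 1178 of 1708 also had a change that was higher than in total RNA. Both tests use the same pool arrays, so this overlap follows in part from the pool call and is no separate support. The lower side of this comparison depends on the scaling: 36 mRNA probes had a lower change in the pool after scaling to the 75th percentile, 71 with no normalization and 129 on the spike-in scale, and the higher side then made up 96.0%, 95.2% and 90.1% of the mRNA calls instead of 48.3%. For lncRNA probes the higher side made up 49.8% of the calls, and between 32.0% (the authors' table) and 82.3% (no normalization) under the other scalings.

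Some of the largest gains in the pool belonged to mRNAs whose total RNA signal fell or was not called. DYNC1H1, the heavy chain of cytoplasmic dynein that moves cargo along microtubules, had log2 signals of 11.2, 11.24 and 11.25 on the control pool arrays and of 13.59, 13.58 and 13.62 on the OS arrays. All OS arrays lay above all control arrays, with a change of 2.37 ± 0.07 (SE, 5.17-fold, adjusted p = 6.7e-08). In total RNA the same probe fell by 0.81 ± 0.08, from 14.49, 14.37 and 14.43 to 13.55, 13.61 and 13.68 (adjusted p = 0.000103), so the changes differed by 3.18. PLEC, the cytolinker plectin, went from 7.7, 7.56 and 7.96 in the control pool to 10.28, 10.36 and 10.55 upon OS. Its change was 2.66 ± 0.11 in the pool (adjusted p = 3.2e-07) and -0.53 in total RNA (adjusted p = 0.0129), a difference of 3.19. A second PLEC probe, above background on 1 of 3 control arrays, had a change of 0.48 in the pool that was not called (adjusted p = 0.128). HUWE1, a ubiquitin ligase, rose by 2.51 ± 0.15 in the pool and fell by 0.64 in total RNA. TNRC18 rose by 2.57 ± 0.24 in the pool, with a change of -0.4 in total RNA that was not called (adjusted p = 0.36), while a second TNRC18 probe had a change of 0.13 in the pool (adjusted p = 0.694). PRPF8, the core scaffold protein of the spliceosome, rose by 2.09 ± 0.18 in the pool, with -0.26 in total RNA (adjusted p = 0.433).

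Some noncoding transcripts followed the same course as these mRNAs. PKI55, whose current RefSeq symbol is LINC01963, had pool signals of 6.45, 6.78 and 6.46 in control and 9.55, 9.4 and 9.47 in OS cells, with no overlap. Its change of 2.91 ± 0.1 (7.52-fold, adjusted p = 1.99e-07) stood beside a fall by 0.62 in total RNA (adjusted p = 0.00467), and their difference of 3.53 was the largest among the mRNA probes that were above background on all 12 arrays and had a sequence of their own. LOC338620 rose from 7.54, 7.28 and 6.8 to 10.14, 10.22 and 10.13, by 2.96 ± 0.16, while its total RNA change was -0.32 (adjusted p = 0.266). The probes of the noncoding genes that the results turn on are given by the first 30 of their 60 bases, 5′ to 3′ on the strand of the transcript, with the GRCh37 position of the whole probe. PKI55 lies at chr2:217084790-217084849 (plus strand), LOC338620 at chr10:33176306-33176365 (minus strand), RNU4ATAC at chr2:122288790-122288849 (plus strand) and LOC644656 at chr11:9481121-9481180 (minus strand). The RNU4ATAC and LOC338620 probes were designed on expressed sequences without a RefSeq transcript, so the symbol is the array design's.
PKI55: tatgttgtccagcccaacaccacaggacca
LOC338620: ctcatcttttgctcaaattgaaatgtcatc
RNU4ATAC: tgtaacttccttatgctgagtcggcccagt
LOC644656: cctagacgccaatggaaagaaaatgggact

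Other transcripts were higher both in total RNA and in the pool. KIAA1683 (now IQCN) had the largest change of all tested mRNA probes, with pool signals of 6.15, 6.41 and 5.85 in control cells, where 2 of 3 arrays were above background, and of 11.99, 12.32 and 11.85 upon OS. This probe rose by 5.92 ± 0.16 in the pool (60.5-fold, adjusted p = 6.7e-08) and by 5 ± 0.17 in total RNA, a difference of 0.92 (adjusted p = 0.0159). A second KIAA1683 probe was not well above background on every array of either pool group and was not tested, so the rise rests on 1 probe. The probe listed as RNU4ATAC rose from 7.46, 7.6 and 5.89 to 11.74, 11.86 and 12.14, a change of 4.93 ± 0.39 beside 4.62 in total RNA. That symbol is the gene of the U4atac small nuclear RNA of the minor spliceosome. The probe has no RefSeq transcript and a start value of 351 in the array design. Whether it reads that small nuclear RNA or another transcript of the locus was not tested. C11orf96 rose by 2.99 ± 0.25 in the pool and by 3.89 in total RNA. FAM83E was above background on no control and on every OS array of the pool, and its OS signals of 8.75, 9.09 and 8.69 were at least 7.47-fold above what the control arrays could measure. In total RNA it was above background on none of the control and on all OS arrays. C10orf99 (now GPR15LG) was at least 5.82-fold higher in the pool, and in total RNA it was above background on 1 of 3 control and on all OS arrays. HMHA1 (now ARHGAP45) was at least 9.73-fold higher in the pool with a rise by 1.86 in total RNA, and APC2 at least 7.04-fold higher with 0.99 in total RNA (adjusted p = 0.0529), and both had a higher change in the pool than in total RNA. LOC644656 (now ZNF143-AS1), the antisense transcript beside ZNF143, was likewise above background on the OS arrays only, with signals of 7.31, 6.82 and 7.28 and a bound of at least 2.29-fold. Its fitted change was 1.25 ± 0.2 in the pool (adjusted p = 0.00104) and 1.9 in total RNA (adjusted p = 0.000224).

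The stress transcription factor ATF3 gained less in the pool than in total RNA. The probe with the largest difference had pool signals of 10.78, 10.65 and 9.9 in control and 14.05, 13.6 and 13.68 in OS cells, while total RNA went from 10.73, 10.27 and 10.17 to 15.74, 15.79 and 15.52. The change was 3.33 ± 0.24 in the pool (10.1-fold) and 5.29 ± 0.24 in total RNA (39.1-fold), and the difference was -1.96 ± 0.33 (adjusted p = 0.00259). After scaling to the 75th percentile the difference was -0.92 and was not called. A pair of other ATF3 probes rose by 3.13 and 2.78 in the pool and by 4.61 and 4.68 in total RNA, while the fourth had a change of 0.17 in the pool (adjusted p = 0.643) and 0.61 in total RNA (adjusted p = 0.176). FAM58BP, a cyclin-related sequence, rose by 0.31 ± 0.09 in the pool and by 2.32 in total RNA. The difference of -2.01 was called under every scaling tried, while the rise in the pool was not called after scaling to the 75th percentile (0.35) or on the spike-in scale (0.17). SPEF1 had pool changes around 0 (-0.09 ± 0.36, adjusted p = 0.873) and rose by 1.58 in total RNA, with signals of 6.87, 6.14 and 7.96 on the control pool arrays.

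**Figure D2:**
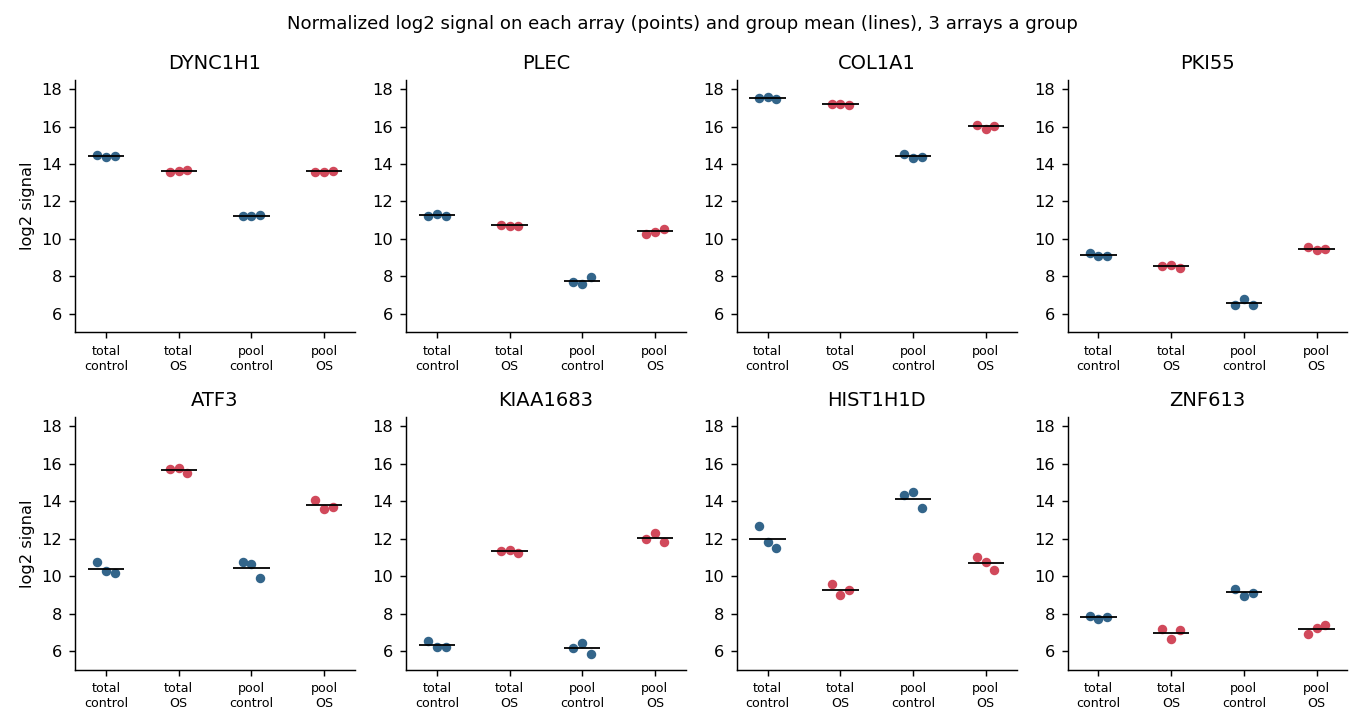
Normalized log2 signal of 8 transcripts on each of 12 arrays, control in blue and OS in red, for total RNA (left in each panel) and the untranslated pool (right), with lines at the group means. DYNC1H1, PLEC, COL1A1 and PKI55 rose in the pool and fell in total RNA, ATF3 and KIAA1683 rose in both, and HIST1H1D and ZNF613 fell in both.

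Extracellular matrix mRNAs had the highest median gain in the pool among the functional lists, leaving out the short lists of cell type markers. These mRNAs are translated on the endoplasmic reticulum and are among the most abundant of a fibroblast. Of 43 tested probes, 29 (67.4%) rose, 1 (2.33%) fell and 13 were not called, against 21.2% higher and 25.2% lower of all mRNA probes. The median change was 0.93 in the pool and -0.07 in total RNA. In total RNA 3 of 48 tested probes rose and 6 fell, against 4.6% and 6.32% of all mRNA probes. COL1A1, a chain of type I collagen, had pool signals of 14.51, 14.34 and 14.37 in control and 16.08, 15.89 and 16.04 in OS cells. It rose by 1.59 ± 0.08 in the pool (3.01-fold) and fell by 0.34 in total RNA. COL3A1 rose by 2.14, tenascin TNC by 2.5 and fibrillin FBN2 by 3.09, and none of these was called in total RNA. FBN2 was above background on 1 of 3 control pool arrays, with signals of 6.84, 5.68 and 5.14 against 9.09, 8.86 and 8.99 upon OS. Both COL6A3 probes rose, by 2.25 and by 2.31, the second above background on 1 of 3 control pool arrays, and COL12A1 rose by 2.3 while it fell by 0.84 in total RNA. A LAMA4 probe was the member that fell, by 0.48 ± 0.09, and a second LAMA4 probe with a change of 0.16 was not called. The change in the pool was higher than in total RNA for 23 of 42 probes and lower for 1, against 16.4% and 17.5% of all mRNA probes.

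Cytoskeletal and metabolic mRNAs gained in the pool as well. Of 48 tested probes of actin, myosin and tubulin genes and their partners, 26 (54.2%) rose and 5 (10.4%) fell, against 21.2% and 25.2% of all mRNA probes, with a median of 0.48 in the pool and -0.04 in total RNA. The actin cross-linker FLNA rose by 1.95 ± 0.1, and MYO10, an unconventional myosin, by 1.91. The probes that fell include those of ACTG2 (-1.07, while its second probe had 0.33 and was not called), MYL12A (-0.63) and MYL12B (-0.54 and -0.45). Among glycolysis genes 9 of 12 probes rose and none fell, with a median of 0.64, against 21.2% of all mRNA probes called higher. ALDOA (aldolase) rose by 1.15 ± 0.11, ENO1 (enolase) by 0.97 ± 0.13 and HK1 (hexokinase) by 0.89, while TPI1 had a change of -0.17 and was not called. No glycolysis probe was called in total RNA. GAPDH is on the array only as 2 control probes that are no part of the fit. After transfer to the mRNA probes' normalized scale, Human-GAPDH_3 had signals of 15.83, 16.1 and 16.25 in the control pool and 17.31, 17.17 and 17.64 upon OS, a change of 1.31 beside 0.04 in total RNA. The other, Human-GAPDH_5, changed by 1.57 in the pool and by 0.13 in total RNA. The exact two-sided permutation p in the pool was 0.1 for both probes, the smallest that 3 against 3 arrays can give.

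Lipid synthesis, proteasome and secretory pathway lists had the same direction. Of 17 probes of sterol and fatty acid synthesis genes 8 (47.1%) rose and none fell, against 21.2% and 25.2% of all mRNA probes, led by FASN, the fatty acid synthase, with 1.91 ± 0.08 in the pool and -0.2 in total RNA (adjusted p = 0.203). DHCR7, which makes cholesterol, rose by 1.19. Of 23 proteasome probes 11 (47.8%) rose and none fell, while 3 rose after scaling to the 75th percentile, and 3 rose and 2 fell on the spike-in scale. The rise was 1.57 for the activator PSME4 and 0.65 for the ATPase subunit PSMC1. Among secretory pathway and unfolded protein response genes 19 of 38 rose and 9 fell, with PDIA3, a disulfide isomerase, at 1.74, SEL1L at 1.47 and SRP9 at -0.7. SEL1L was above background on 2 of 3 control pool arrays. The median was 0.28 in the pool and 0.01 in total RNA.

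Histone mRNAs lost signal in the pool. Replication-dependent histone mRNAs carry no poly(A) tail for the most part, so an oligo-dT primer reads mainly their polyadenylated forms. Of 29 tested probes 24 (82.8%) fell and none rose in the pool, against 25.2% and 21.2% of all mRNA probes, with a median of -1.19. In total RNA 5 of 29 fell, against 6.32% of all mRNA probes, with a median of -0.53. The linker histone HIST1H1D (H1-3) went from 14.32, 14.48 and 13.64 in the control pool to 11.02, 10.73 and 10.31 upon OS, a change of -3.46 ± 0.33 (11-fold lower, adjusted p = 3.91e-05), and fell by 2.73 in total RNA. HIST1H2AL fell by 2.28, HIST2H3A by 2.06 and HIST1H1E by 1.89, each with a call in total RNA in the same direction. HIST1H3J fell by 2.13 in the pool with -0.54 in total RNA (adjusted p = 0.22), a difference of -1.59 that was not called after scaling to the 75th percentile. The replacement histones H3F3B and H3F3A, which are made in all phases of the cell cycle, fell by 0.42 and 0.33. Histone genes resemble each other closely, and signal shared between copies cannot be told apart.

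Zinc finger transcription factors were the largest list with a loss. Most belong to the KRAB family of DNA-binding repressors, whose mRNAs turn over quickly. Of 206 tested probes 129 fell and 11 rose, so 62.6% were lower against 25.2% of all mRNA probes, with a median of -0.72 in the pool and -0.26 in total RNA. In total RNA 49 of 318 fell and 8 rose, against 6.32% and 4.6% of all mRNA probes. ZNF613 went from 9.32, 8.95 and 9.12 to 6.89, 7.24 and 7.4, with no overlap, a change of -1.95 ± 0.17 in the pool and of -0.83 in total RNA. ZNF555 fell by 2.21 ± 0.09 and ZNF416 by 1.94 ± 0.17. ZNF786 was above background on every control and on no OS array of the pool, at least 3.49-fold lower upon OS, and ZNF484 at least 1.68-fold lower. Outside the list, FUT4, a fucosyltransferase, was at least 4.34-fold lower, the transcript listed as ENST00000358739 at least 4.12-fold and DCUN1D2 at least 2.51-fold. ZNF469, one of the 11 that rose, gained 1.3 ± 0.12 in the pool while it fell by 1.31 in total RNA.

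Nuclear-encoded mitochondrial mRNAs had more lower than higher calls in the pool, a split that was lost or turned after scaling to the 75th percentile. Of 53 tested probes of nuclear-encoded respiratory chain subunits 21 (39.6%) fell and 5 (9.43%) rose, against 25.2% and 21.2% of all mRNA probes. Their median was -0.25 in the pool and 0.13 in total RNA. NDUFC2 fell by 0.6 and NDUFA5 by 0.59, both subunits of complex I, whereas ATP5B (ATP synthase beta) rose by 1.06 and UQCRC1 by 1.04. Of 41 probes of mitochondrial ribosomal proteins 17 (41.5%) fell, with MRPS17 at -0.71 and MRPL13 at -0.7, and 2 (4.88%) rose, both of MRPL37, at 0.67 and 0.6. Without 1 array, the lower calls among mitochondrial ribosomal proteins were 10 (control pool replicate 1), 8 (OS pool replicate 2) or 11 (OS pool replicate 3). After scaling to the 75th percentile the calls were 3 higher and 0 lower for the respiratory chain and 1 higher and 2 lower for mitochondrial ribosomal proteins, while the medians were -0.22 and -0.23.

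**Figure D3:**
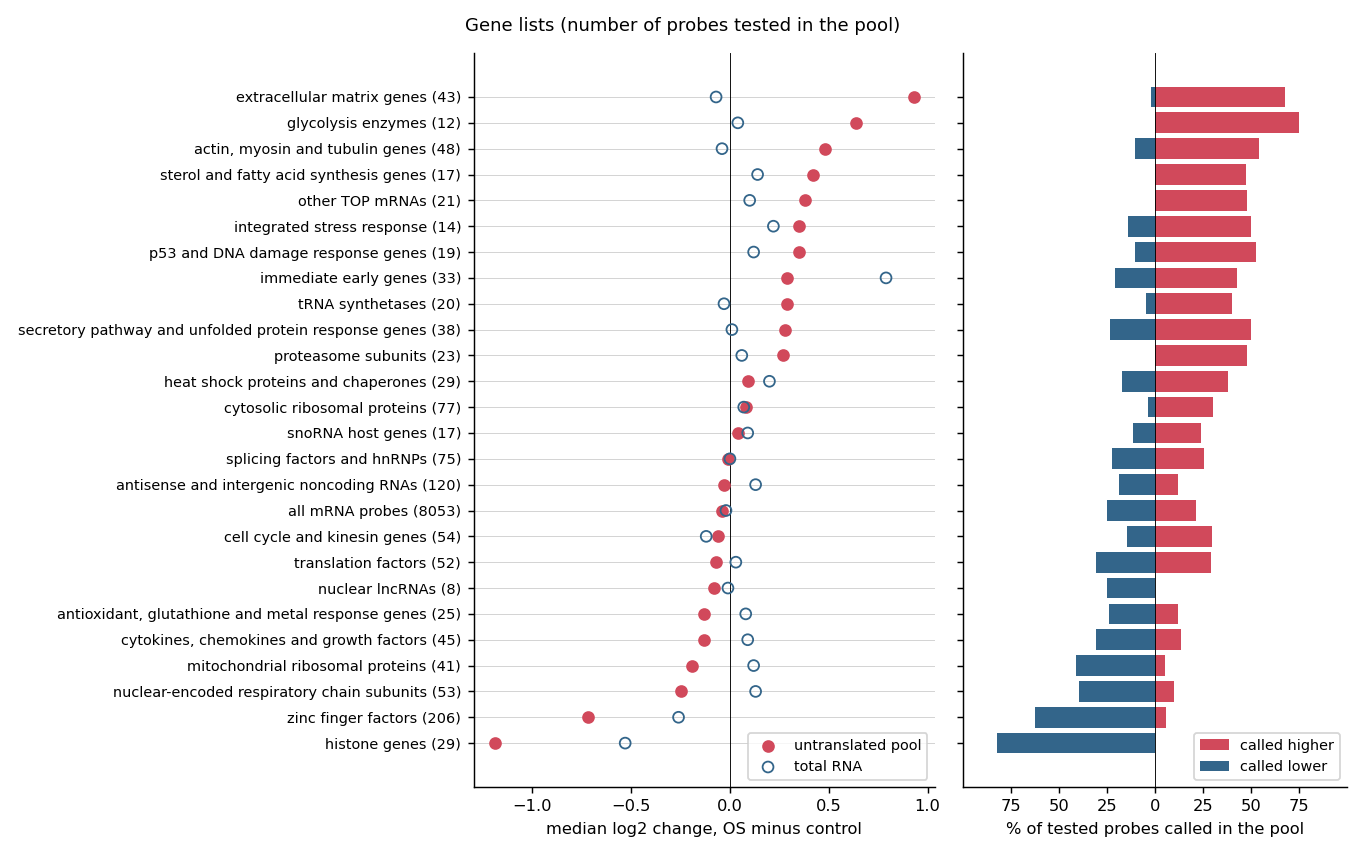
Left, median log2 change upon OS of the probes of each gene list in the untranslated pool (red) and in total RNA (open blue), with the number of probes tested in the pool in brackets. Right, the percentage of those probes called higher (red, to the right) and lower (blue, to the left) in the pool, with extracellular matrix genes at the top and histone genes at the bottom of the order by median.

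Components of the translation machinery did not move together. Cytosolic ribosomal protein mRNAs carry a 5′ terminal oligopyrimidine (TOP) tract that couples their translation to growth signals. Of 77 tested probes 23 (29.9%) rose, 3 fell and 51 were not called, against 21.2% and 25.2% of all mRNA probes, and the median of 0.08 in the pool lay near the 0.07 of total RNA. Without OS pool replicate 2, 14 rose, after scaling to the 75th percentile 8 rose and 1 fell, and on the spike-in scale 8 rose and 3 fell. RPL5 rose by 0.78 and RPS9 by 0.69, while the probes that fell include RPL7L1 (-0.82) and RPL26L1 (-0.29), which are paralogs outside the standard ribosome. Of 21 probes of other TOP mRNAs 10 rose and none fell, with NPM1 at 0.9 and EEF1D at 0.88 and a median of 0.38. Translation factors split into 15 that rose (28.9%) and 16 that fell (30.8%) of 52, shares near those of all mRNA probes, with a median of -0.07 that became 0.02 after scaling to the 75th percentile. EIF3C rose by 1.22 ± 0.1, and EIF4E, the cap-binding protein, fell from 10.57, 10.4 and 9.9 to 9.28, 9.1 and 9 in the pool, by 1.16 ± 0.15, with 0.04 in total RNA. Of 20 probes of tRNA synthetases 8 rose, among them IARS2 at 1.25 and AARS at 1.12, and 1 fell, NARS2 at -0.41.

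Immediate early mRNAs, which are made within minutes of a stimulus, had a lower change in the pool than in total RNA for many members. Of 33 tested probes 14 (42.4%) rose and 7 (21.2%) fell in the pool (median 0.29), against 21.2% and 25.2% of all mRNA probes. In total RNA 23 of 35 rose and 2 fell (median 0.79), against 4.6% and 6.32% of all mRNA probes. The change was lower in the pool for 15 of 33 probes and higher for 1, against 17.5% and 16.4% of all mRNA probes. After scaling to the 75th percentile it was lower for 3 and higher for 0, with a median difference of -0.4 in place of -0.5. ARC rose in both, from below background on all control pool arrays to 8.69, 7.6 and 8.86, at least 5.43-fold. IER3 had a change of 0.02 in the pool and rose by 0.97 in total RNA, and RHOB had 0.2 in the pool and rose by 1.08 in total RNA. ZFP36, which promotes decay of AU-rich mRNAs, fell by 0.4 in the pool and rose by 1.16 in total RNA. CYR61 (now CCN1) fell in both, by 1.41 ± 0.08 in the pool and by 1.58 in total RNA.

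Genes of the integrated stress response, which is triggered by phosphorylation of the initiation factor eIF2, behaved unevenly. ATF4, whose upstream reading frames let it be translated during that response, had a change of -0.02 in the pool, which was not called, and rose by 0.78 in total RNA. The list members SLC7A5, ASNS and SLC7A11 rose in the pool by 1.36, 1.33 and 1.17, and none of these was called in total RNA. CHAC1 fell by 0.76 in the pool and NUPR1 by 0.28. In all, 7 of 14 probes (50%) rose and 2 (14.3%) fell in the pool, against 21.2% and 25.2% of all mRNA probes. In total RNA 5 of 14 rose and 1 fell, against 4.6% and 6.32% of all mRNA probes. The change in the pool was higher than in total RNA for 4 of 14 probes and lower for 5, against 16.4% and 17.5% of all mRNA probes. After scaling to the 75th percentile it was higher for 4 and lower for 1.

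Heat shock, DNA damage and antioxidant lists held changes in both directions, and their counts are read against the 21.2% higher and 25.2% lower of all mRNA probes. Among heat shock proteins and chaperones 11 of 29 probes (37.9%) rose and 5 (17.2%) fell, with HSP90AB1 at 1.46 and CCT4 at 1.07 against DNAJB6 at -0.7, whose second probe had 0.45 and was not called. The median of this list was 0.09, and -0.12 on the spike-in scale, and 7 rose without control pool replicate 2 or without OS pool replicate 3. Among p53 and DNA damage response genes 10 of 19 (52.6%) rose and 2 fell, but 3 rose and 0 fell after scaling to the 75th percentile, and 3 rose and 3 fell on the spike-in scale. Examples are GADD45G at 1.68 in the pool and 1.99 in total RNA, and ATR, a DNA damage kinase above background on 1 of 3 control pool arrays, at 1.43 in the pool and -0.62 in total RNA (adjusted p = 0.111). Of 25 probes of antioxidant, glutathione and metal response genes 3 (12%) rose and 6 (24%) fell, shares at or under those of all mRNA probes, and 2 rose and 0 fell after scaling to the 75th percentile. Examples are GSS (glutathione synthetase) at 0.9 and the metallothioneins MT1E and MT1A at -0.48 each. Metallothionein genes resemble each other closely. Cell cycle and kinesin genes gave 16 higher (29.6%) and 8 lower (14.8%) of 54, and 10 and 13 on the spike-in scale, with KIF13B at 1.53 and CENPA at -1.22. Splicing factors gave 19 higher (25.3%) and 17 lower (22.7%) of 75, shares near those of all mRNA probes. Of 45 probes of cytokines and growth factors 6 (13.3%) rose, with VEGFA, above background on 1 of 3 control pool arrays, at 0.93, and 14 (31.1%) fell, with FGF1 at -1.2.

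The start value of a probe in the array design went with its change in the pool. The position is the start value that the array files give for each probe, read here as its distance in bases from the start of the target transcript. The files do not define this value, so the quartiles and correlations hold for it as deposited, under that reading. The part of transcript length or RNA quality in this relation was not tested. Among 6757 probes with a coding RefSeq accession, 9.11% were higher and 35.6% lower in the quartile of probes that start within 1015 bases of the transcript start. In the quartile that starts at 3271 bases or farther, 40.8% were higher and 16.5% lower. The median change in the pool went from -0.21 through -0.09 and -0.04 to 0.23 across the quartiles, and that in total RNA from 0.11 through 0.06 and -0.04 to -0.24. Across probes the Spearman rho with probe position was 0.28 for the pool, -0.47 for total RNA and 0.42 for their difference, as a description of probes that share arrays. The relation was seen on each OS array: against the mean of the control arrays rho was 0.23, 0.31 and 0.26 in the pool and -0.43, -0.42 and -0.47 in total RNA. Control arrays against the other controls gave 0.17, -0.15 and -0.04 in the pool and 0.01, -0.06 and 0.02 in total RNA. The median probe position was 3457 bases for extracellular matrix genes, 326 for histone genes and 2346 for zinc finger factors, against 1703 for all tested mRNA probes. Median changes by GC content of the probe ran from -0.14 in the lowest to 0.1 in the highest quartile.

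**Figure D4:**
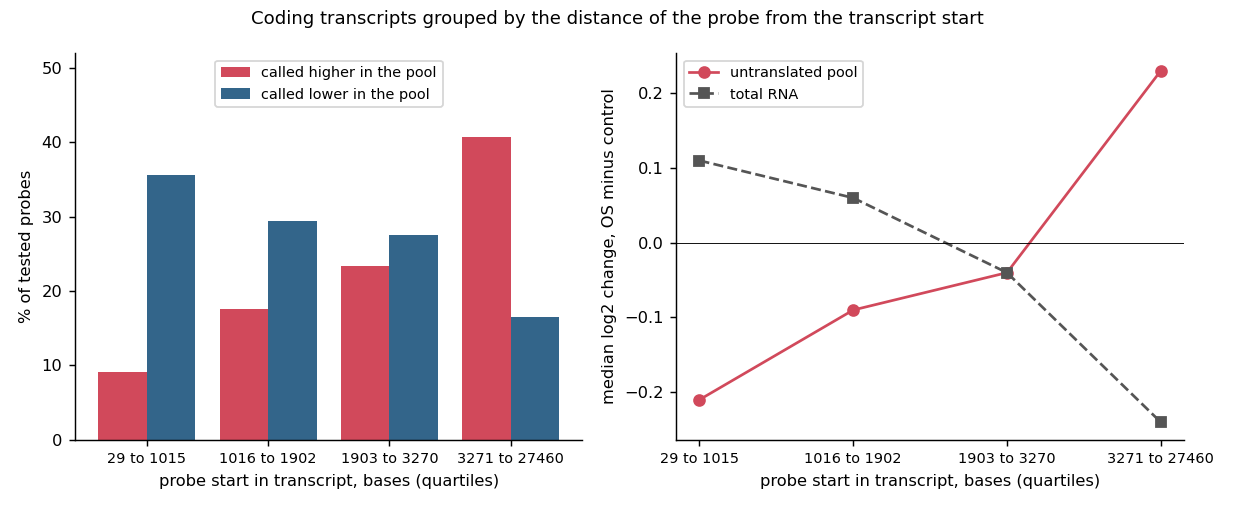
Coding probes in quartiles of the probe's start value in the array design, read as bases from the transcript start. Left, the percentage called higher (red) and lower (blue) in the untranslated pool, with 9.11% higher in the first and 40.8% in the last quartile. Right, the median log2 change in the pool (red) and in total RNA (grey), which run in opposite directions.

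Noncoding RNAs were first read as a category, over the probes that were tested in the pool. All probes were quantile-normalized jointly, and medians were taken over the 7019 lncRNA and 8053 mRNA probes tested in the pool. The median lncRNA signal lay 0.97 ± 0.07 (SD, n = 3) below the median mRNA signal in the control pool and 1.01 ± 0.1 below it in the OS pool. The change of -0.04 was within the spread of the arrays (exact two-sided permutation p = 0.5, smallest possible 0.1). Over the same probes the gap in total RNA went from 2.12 to 1.96, a change of 0.15 (exact two-sided permutation p = 0.1). Probes not tested in the pool are no part of these medians. Catalog probes that RefSeq classes as lncRNA or antisense RNA gave 20 higher (11.6%) and 39 lower (22.7%) of 172 tested in the pool. The shares over all mRNA probes were 21.2% and 25.2%. In total RNA 29 were higher and 8 lower of 170 tested, against 4.6% and 6.32% of all mRNA probes. In the pool, probes of transcribed pseudogenes gave 16 higher (15.5%) and 29 lower (28.2%) of 103. Those of protein-coding genes gave 1480 (23.1%) and 1748 (27.3%) of 6407.

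Of the lncRNA transcripts with both custom probes above background on all 6 pool arrays and a sequence of their own, 100 had both probes higher and 157 both lower. The number of transcripts that met this condition was not counted, so no shares can be given. Over single lncRNA probes 12.2% were higher and 12.7% lower, a split that depends on the scaling. ENST00000564152.1 had the largest mean gain, from 7.91, 7.36 and 7.68 to 10.96, 10.56 and 11.12, a change of 3.23 in the pool and 3.44 in total RNA. The next 4 gained in the pool with no call in total RNA. ENST00000566788.1 rose by 2.72, from 7.73, 6.75 and 6.57 to 9.61, 9.69 and 9.91, with -0.55 in total RNA. ENST00000464767.1 rose by 2.64 with -0.27 in total RNA, ENST00000562874.1 by 1.83 with -0.55, and ENST00000418300.1 by 1.8 with -0.29. The 5 transcripts with the largest mean loss changed alike in both kinds of RNA. ENST00000540383.1 and ENST00000412962.1 have probes with consecutive numbers in the array design, and so do ENST00000344686.2 and ENST00000587332.1. Whether the transcripts of such a pair belong to 1 gene was not tested, so the 5 cannot be counted as separate cases. ENST00000429897.1 fell by 1.62 in the pool, from 11.3, 11.16 and 10.93 to 9.43, 9.46 and 9.63, and by 1.59 in total RNA. The changes in the pool and in total RNA were -1.34 and -1.19 for ENST00000540383.1, -1.29 and -1.21 for ENST00000412962.1, -1.23 and -1.17 for ENST00000344686.2, and -1.19 and -1.14 for ENST00000587332.1.

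**Figure D5:**
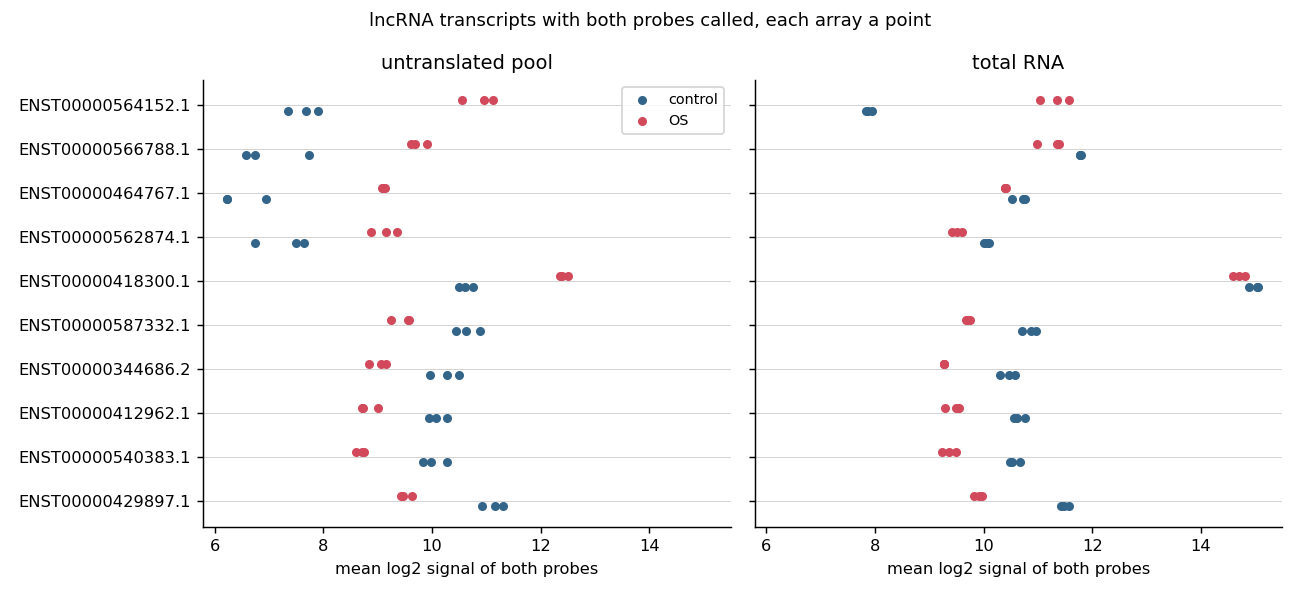
Mean log2 signal of both probes of 10 lncRNA transcripts on each array, control in blue and OS in red, in the untranslated pool (left) and in total RNA (right). Of the upper 5 transcripts, ENST00000564152.1 lies higher upon OS on both sides while the others do so only in the pool, and the lower 5 lie lower upon OS on both sides.

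Some lncRNAs rose in total RNA and were not called in the pool. ENST00000445730.1 had pool signals of 8.02, 8.1 and 7.9 in control and 7.71, 7.87 and 7.9 in OS cells, a change of -0.18 (adjusted p = 0.236), and rose by 2.2 in total RNA, a difference of -2.38. ENST00000438158.1 had a change of 0.06 in the pool and rose by 1.69 in total RNA. Among catalog probes of well-studied nuclear and cytoplasmic lncRNAs 2 of 8 fell and none rose, a share near the 25.2% of all mRNA probes, and 1 fell without control pool replicate 3. The 2 are NORAD (listed as LOC647979), which binds Pumilio proteins, at -0.62 and OIP5-AS1 at -0.54. MALAT1 was not above background on every array of a pool group and was not tested. Of 120 tested probes of named antisense and intergenic noncoding RNAs 14 (11.7%) rose and 23 (19.2%) fell. These shares were under the 21.2% and 25.2% of all mRNA probes. LINC01004 (listed as LOC100216546), above background on every OS and no control pool array, was at least 3.38-fold higher upon OS. BDNF-AS1 was at -0.99 and ZBTB11-AS1 (listed as LOC100009676) at -0.85, both above background on only 1 of 3 OS pool arrays. Of the probes of this list, 32 of 119 had a lower change in the pool than in total RNA and 5 a higher one, against 17.5% and 16.4% of all mRNA probes. After scaling to the 75th percentile the change was lower for 1 and higher for 5. Among 17 probes of snoRNA host genes 4 (23.5%) rose and 2 fell, a share of rises near the 21.2% of all mRNA probes, with 2 rising without control pool replicate 1 or 2 or OS pool replicate 1 or 3, and a median of 0.04 that was -0.05 on the spike-in scale. SNHG3 rose by 0.93 with -0.3 in total RNA (adjusted p = 0.321), SNHG10 rose in both by 0.63 and 0.83, and SNHG15 (listed as C7orf40) fell by 0.56.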

How the data were processed

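Agilent 1-colour 8x60K arrays were scanned and read with Feature Extraction 10.7.3.1 by the authors. The deposited processed signal is a linear intensity, background-corrected per array by that software. Per the methods, the authors log2-transformed this signal and quantile-normalized coding and noncoding probes separately, and another passage names normexp background correction. Their deposited table of log2 values served as an alternative. Members and gene lists were chosen with earlier results of these data known.

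Here the log2 of the deposited processed intensity was quantile-normalized over 12 arrays (total RNA and untranslated pool), separately for lncRNA and mRNA probes, after leaving out control spots and 80 probes with an outlier mark (61457 of 61537 kept). No probe was saturated. limma 3.58.1 in R 4.3.3 fitted 4 group means (lmFit, eBayes), with Benjamini-Hochberg adjustment over tested lncRNA and mRNA probes together. The difference between pool and total RNA was tested as the interaction. SE is the moderated standard error. Precision is limited by 3 arrays a group. Bounds for probes not well above background set the mean of the bright arrays against the dim arrays' mean, each at the lowest signal well above background or its own. In simulated arrays with 200 probes changed by 1.5 (log2) in the pool, the test of the pool found 90% of them in a run on 15072 probes, and 14 calls were false. The simulated noise was independent between probes and arrays, with 1 SD per probe for all groups, unlike the deviations shared within slides in the data. These figures therefore do not give the error rate of the real calls. Named were the 8 mRNA probes with the largest called change each way (above background on all 6 pool arrays, groups not overlapping, own sequence), the 4 largest bounds each way, the 4 mRNA and 2 lncRNA probes with the largest called interaction each way, the 5 lncRNA transcripts each way with both probes called, the 2 strongest called members of each list each way, and fixed names; genes given beside these were chosen after their values were seen. FOS and ACTB have no catalog probe. Of 17535 catalog probes, 12492 matched 1 RefSeq symbol, 526 several and 4517 none. No set test was run. Protein length could not be added without a protein table, so probe position was used, chosen after seeing the data. Levels of single probes were not compared with each other. Alternatives are listed in the closing section. Some list members are counted but not reported here by name.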

Additional observations from a re-analysis of the deposited data

Results flagged for a closer look

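The changes upon OS in the untranslated pool and in total RNA differed by the interaction test for 1312 mRNA probes with a higher and 1404 with a lower change in the pool, and for 517 and 521 lncRNA probes. The change in the pool minus that in total RNA was 3.53 for PKI55, 3.28 for LOC338620, 3.19 for PLEC and 3.18 for DYNC1H1. It was -2.01 for FAM58BP, -1.68 for SPEF1 and -1.59 for HIST1H3J. The called ATF3 probes gave -1.96, -1.48 and -1.91, and KIAA1683 gave 0.92. Among lncRNA probes it was 3.37 for ENST00000566788.1, 3.07 for ENST00000464767.1, -2.38 for ENST00000445730.1 and -1.64 for ENST00000438158.1.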

How the results depend on the processing

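Counts in the untranslated pool are given as mRNA higher, mRNA lower, lncRNA higher and lncRNA lower, and were 1711, 2026, 858 and 891. Scaling to the 75th percentile gave 1017, 642, 555 and 322. With no normalization 1301 mRNA probes were lower. Spike-in scaling gave 990 mRNA and 435 lncRNA probes higher and 1502 lncRNA probes lower. Requiring signal above background on every array of both groups gave 544 lncRNA probes higher. All 24 arrays gave 1262 mRNA probes lower and 409 and 296 lncRNA probes higher and lower. Only the 6 pool arrays gave 1259 mRNA and 427 lncRNA probes lower. Averaging each transcript's probes gave 495 and 495 lncRNA transcripts.

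The interaction counts (1312, 1404, 517 and 521) became 867, 36, 292 and 77 with the 75th percentile, 797, 597, 151 and 114 with all 24 arrays, and 299 and 322 lncRNA transcripts with probes averaged. On the lower side, no normalization gave 71 mRNA and 83 lncRNA probes, spike-in scaling 129 and 118 (321 lncRNA probes higher), no filter 680 mRNA probes, joint quantile normalization 940 lncRNA probes, and the values normalized by the authors 941. Leaving out control total RNA replicate 1 and control pool replicate 1 together, chosen after seeing the data, gave 317 lncRNA probes lower. The cause of these moves was not tested.

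Leaving out 1 array at a time gave 1517 to 1716, 1757 to 2088, 771 to 889 and 643 to 1023 in the pool, and 1066 to 1363, 914 to 1606, 387 to 584 and 296 to 690 for the interaction. The counts of lower interactions moved over 1.5 times without control total RNA replicate 2 (914 mRNA and 297 lncRNA), control total RNA replicate 3 (315 lncRNA) or OS total RNA replicate 3 (296 lncRNA). Without control total RNA replicate 1 alone the interaction counts were 1109, 1235, 430 and 388. In total RNA (490, 674, 1200 and 839) the ranges were 325 to 561, 341 to 812, 901 to 1314 and 501 to 984. Counts there moved over 1.5 times without control total RNA replicate 1 (362 mRNA probes lower), 2 (325 higher, 392 lower) or 3 (369 mRNA and 501 lncRNA probes lower) and without OS total RNA replicate 1 (341 and 511 lower) or 3 (360 and 551 lower). With only the 6 total RNA arrays the counts were 921, 1693, 1831 and 1865. The lncRNA minus mRNA change of -0.04 ranged from -0.08 to 0.02 and reversed to 0.02 without OS pool replicate 3.

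With control pool replicates 1 and 2 taken as 1 sample the pool counts were 1669, 1849, 858 and 744. With the replicate block the pool counts were 1666, 1993, 839 and 853. The replicate numbers do not pair the arrays: same-numbered control and OS arrays of the pool deviated with r of -0.455, -0.056 and -0.112, and arrays on the same slide with 0.479, 0.458 and 0.046. With slide as a block the counts were 1788, 2127, 1021 and 1147.

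Single genes reversed in 5 cases. ENST00000438158.1 (0.06) became -0.14 with spike-in scaling. An ATF3 probe (0.17) ranged from -0.03 to 0.36 when 1 array was left out, with -0.03 without control pool replicate 1, and was -0.03 without that array and control total RNA replicate 1. SPEF1 (-0.09) ranged from -0.52 to 0.4, with 0.02 without OS pool replicate 1 and 0.4 without control pool replicate 3. The interaction call of SPEF1 was lost under 15 alternatives.

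Signal over background limited the tests, and 9435 of 17488 mRNA probes were not tested in the pool.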
